A study of Homo sapiens with 10 samples.

Results

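The receptors that place B cells in and around the germinal centre, and the G protein GNA13 through which a pair of them signal, were followed in clones of the U2932 cell line, which was derived from a human diffuse large B cell lymphoma. The set has 10 genes, taken by symbol: the chemokine receptors CXCR4, CXCR5, CCR6 and CCR7, the sphingosine-1-phosphate receptors S1PR1, S1PR2 and S1PR4, the oxysterol receptor GPR183, the receptor P2RY8, whose ligand is S-geranylgeranyl-L-glutathione, and GNA13. All 10 have a row among the 21174 gene identifiers of the table. A filter on low counts kept 8 of them, among 11961 genes tested, and left out CCR6 and S1PR4. The libraries are 5 labelled CREBBP+/+ (WT_1 to WT_5) and 5 labelled CREBBP+/- (Het_6 to Het_10). CREBBP is a histone acetyltransferase and transcriptional coactivator. RNA came from clones of this 1 lymphoma line, for which the labels name no treatment, so none of the libraries is of normal germinal centre B cells, and the labels do not say how the CREBBP+/- clones were made.

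In a lymph node, CXCR5 draws B cells into follicles toward CXCL13, CXCR4 holds germinal centre cells in the dark zone toward CXCL12, and CCR7 and GPR183 draw activated B cells to the T cell zone and the outer follicle. S1PR1 couples to Gi proteins and lets lymphocytes leave the tissue toward sphingosine-1-phosphate. S1PR2 and P2RY8 couple to G alpha 13, the product of GNA13, which activates RhoA through ARHGEF1, stops migration and confines cells to the germinal centre. Genes of this confinement branch are recurrently mutated in germinal centre lymphomas.

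Total counts per library ranged from 10615977 reads in Het_9 to 23020694 in Het_6. CREBBP itself had 103 to 136 CPM (read counts per 1000000, scaled with TMM factors) in the CREBBP+/+ group and 56.8 to 80.7 CPM in the other group, with no overlap (exact permutation p = 0.00794, edgeR adjusted p = 0.395). The libraries form 3 expression clusters that cross the genotypes: WT_1, WT_2 and Het_8 (the cluster of 3), WT_3, WT_4, WT_5, Het_6 and Het_7 (the cluster of 5), and Het_9 with Het_10. Average-linkage clustering of 11836 genes, without the receptor set, its pathway lists and the cell type markers, returned the same 3 clusters. All 7 B cell markers were present (28.7 to 1570 CPM). Of 29 markers of T, NK, myeloid, stromal, endothelial, epithelial and erythroid cells, 19 had at most 10 counts in every library and 9 had no count. The epithelial marker EPCAM moved with the clusters (mean 6.14 CPM in the cluster of 3, 23.7 in the cluster of 5 and 23 in Het_9 and Het_10), and the T cell receptor gene TRAC had means of 9.41, 18.2 and 20.3 CPM in the same order, with overlap between the clusters of 3 and 5. The NK and neural marker NCAM1 and the stromal marker DCN were higher in Het_9 and Het_10 (means 3.28 and 1.09 CPM) than elsewhere (at most 0.18 and 0 CPM). The part of these genes in the results below was not tested. Separate culture of the clones is not stated in the labels, and every p-value below therefore measures library-to-library spread, which may be technical. In such bulk RNA, fewer cells with a transcript and less transcript per cell cannot be told apart.

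S1PR2, P2RY8 and GNA13, the receptors and G protein of the confinement branch, were all low in WT_1, WT_2 and Het_8 and higher in the other 7 libraries. S1PR2 (ENSG00000267534, chromosome 19, 10221433 to 10231331, minus strand, GRCh38) had 17 CPM in WT_1, 14.9 in WT_2 and 18.3 in Het_8. It had 81.5 CPM in WT_3, 85.4 in WT_4, 88.2 in WT_5, 61.1 in Het_6, 51.0 in Het_7, 103 in Het_9 and 94.7 in Het_10. The cluster of 3 was thus far below every other library, and the mean of the cluster of 5 was 4.39-fold that of the cluster of 3 (73.4 ± 16.5 and 16.7 ± 1.72 CPM, SD, n = 5 and 3). S1PR2 had the largest spread of the 8 tested genes, an SD of log2 CPM of 1.12 over the 10 libraries, above 94.6% of the genes tested.

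P2RY8 (ENSG00000182162, chromosome X, 1462581 to 1537185, minus strand, in the region that chromosomes X and Y share) had 117 CPM in WT_1, 105 in WT_2 and 122 in Het_8. It had 265 CPM in WT_3, 273 in WT_4, 240 in WT_5, 259 in Het_6, 223 in Het_7, 217 in Het_9 and 220 in Het_10. The other 7 libraries were close to one another, and the mean of the cluster of 5 was 2.20-fold that of the cluster of 3 (223 to 273 CPM against 105 to 122 CPM). The handling of reads from the shared region is unknown.

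GNA13 (ENSG00000120063, chromosome 17, 65009289 to 65056740, minus strand) had 188 CPM in WT_1, 195 in WT_2 and 192 in Het_8. It had 359 CPM in WT_3, 390 in WT_4, 384 in WT_5, 334 in Het_6, 310 in Het_7, 295 in Het_9 and 256 in Het_10. The mean of the cluster of 5 was 1.85-fold that of the cluster of 3 (355 ± 33.5 and 192 ± 3.52 CPM, SD), and Het_9 and Het_10 lay between them.

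**Figure D1:**
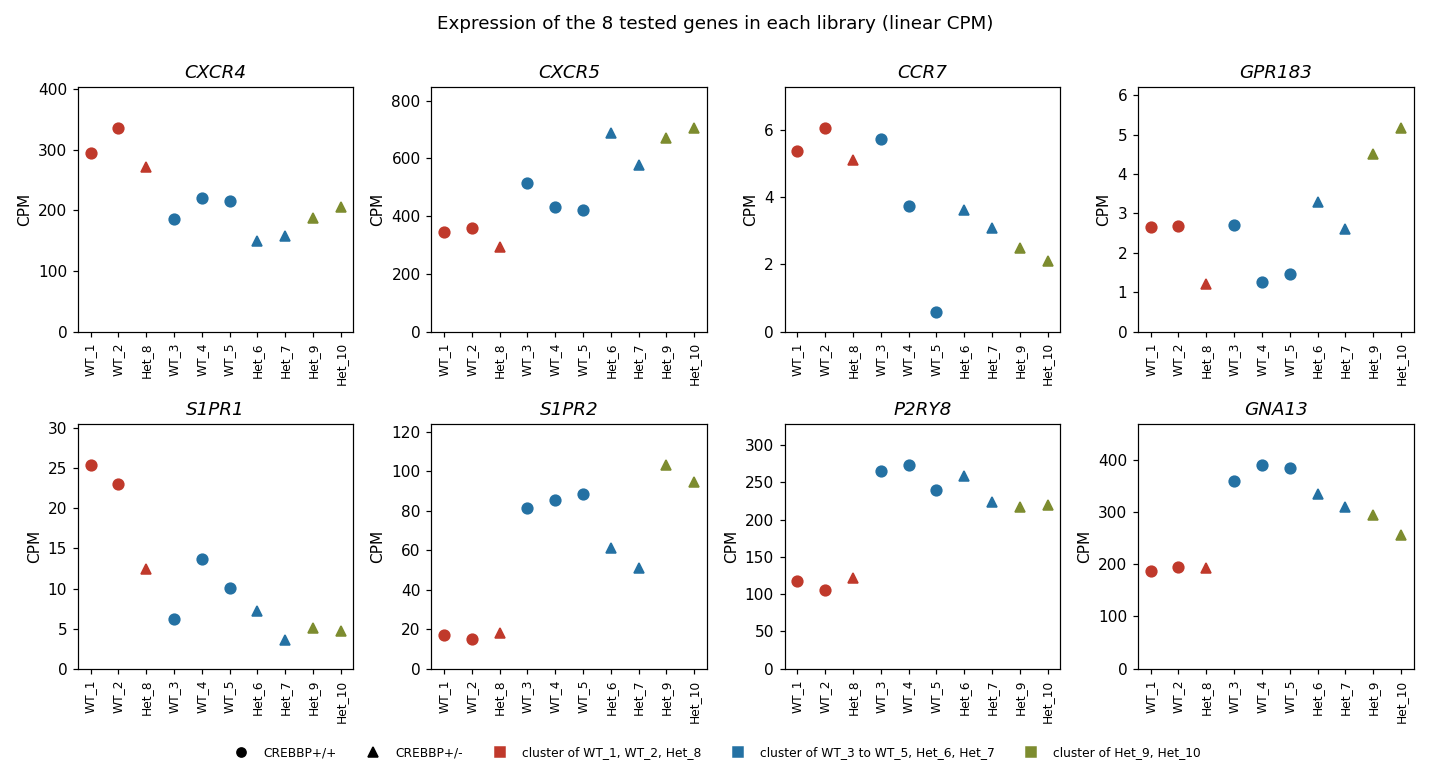
CPM on linear axes (y) of the 8 tested genes in each of the 10 libraries (x), with circles for CREBBP+/+ and triangles for CREBBP+/- and colours for the 3 clusters. In the panels of S1PR2, P2RY8 and GNA13 the libraries WT_1, WT_2 and Het_8 lie at 14.9 to 18.3, 105 to 122 and 188 to 195 CPM, below the other 7 libraries.

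The starts of these genes differ in sequence. The stretches run from 250 bases before each gene's most upstream RefSeq start to 10 bases after it (GRCh38.p14, 5′ to 3′ on its strand). They are shown because the first 3 genes were low in the same 3 libraries, whereas S1PR1 was highest in WT_1 and WT_2. Capitals mark matches to 6 motifs searched on both strands of the 300-base RefSeq windows: the cyclic AMP response element TGACGTCA, to which the CREB factors that recruit CREBBP bind, its core TGACG (part of the full element), the octamer ATTTGCAT, the forkhead motif GTAAACA, the E-box CAGCTG and the KLF motif CCACACCC.
S1PR2 (chr19:10231322-10231581, minus strand): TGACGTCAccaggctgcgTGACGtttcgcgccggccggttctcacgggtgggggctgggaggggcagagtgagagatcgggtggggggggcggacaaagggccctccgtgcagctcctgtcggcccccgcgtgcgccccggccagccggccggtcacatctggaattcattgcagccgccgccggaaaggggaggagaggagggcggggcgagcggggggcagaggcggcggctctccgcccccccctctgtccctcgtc
P2RY8 (chrX:1537176-1537435, minus strand): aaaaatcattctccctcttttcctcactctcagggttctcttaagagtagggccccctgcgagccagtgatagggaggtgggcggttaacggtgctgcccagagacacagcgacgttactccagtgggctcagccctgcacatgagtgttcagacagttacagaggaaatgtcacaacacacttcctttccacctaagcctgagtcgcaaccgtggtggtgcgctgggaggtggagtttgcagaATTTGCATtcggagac
GNA13 (chr17:65056731-65056990, minus strand): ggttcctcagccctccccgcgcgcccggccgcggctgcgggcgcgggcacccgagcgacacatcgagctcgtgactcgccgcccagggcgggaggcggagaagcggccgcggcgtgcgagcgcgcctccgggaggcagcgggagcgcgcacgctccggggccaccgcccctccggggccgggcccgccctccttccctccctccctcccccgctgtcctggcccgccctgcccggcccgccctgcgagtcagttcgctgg
S1PR1 (chr1:101236769-101237028, plus strand): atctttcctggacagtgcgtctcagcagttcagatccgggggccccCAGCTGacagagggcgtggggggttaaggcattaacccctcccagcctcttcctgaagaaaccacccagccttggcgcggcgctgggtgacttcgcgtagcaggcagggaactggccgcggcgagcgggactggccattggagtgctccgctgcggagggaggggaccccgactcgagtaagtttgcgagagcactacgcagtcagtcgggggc
The S1PR2 stretch opens with the full cyclic AMP response element at -250, which 1.85% of 35116 RefSeq windows of 300 bases hold. The stretch has a further core at -232 (24.6% of windows hold a core). P2RY8 has an octamer, the motif of the B cell factors OCT1 and OCT2, across its start at -6 (1.77% of windows). S1PR1 has 1 E-box at -204 (17.9% of windows). The GNA13 stretch is 81.2% G and C, against 73.8% for S1PR2, 65.0% for S1PR1 and 53.8% for P2RY8, and its window holds none of the 6 motifs. The forkhead motif and the KLF motif (3.42% and 3.28% of windows) were in none of the 9 windows searched, 1 for each member that had any. CXCR4 and CCR6 have 3 RefSeq windows each and P2RY8 and GNA13 have 2, and only the most upstream was searched. These are matches of letters, and binding was not measured.

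S1PR1, the egress receptor, ran the other way. S1PR1 (ENSG00000170989, chromosome 1, 101236865 to 101243713, plus strand) had 25.4 CPM in WT_1, 23.1 in WT_2 and 12.5 in Het_8. It had 6.22 CPM in WT_3, 13.7 in WT_4, 10.1 in WT_5, 7.26 in Het_6, 3.62 in Het_7, 5.05 in Het_9 and 4.66 in Het_10. WT_1 and WT_2 were above all others, while Het_8 lay within the range of the cluster of 5 (3.62 to 13.7 CPM). The mean of the cluster of 3 was 2.49-fold that of the cluster of 5.

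S1PR4, a sphingosine-1-phosphate receptor of haematopoietic cells (ENSG00000125910, chromosome 19, 3172346 to 3180332, plus strand), was near the limit of detection. It had 21 counts in WT_1, 7 in WT_2 and 20 in Het_8, 48 in all, and 0 to 3 counts in each of the other 7 libraries, 5 in all. The cluster of 3 again stood apart, at 0.382 to 1.29 CPM against at most 0.135 CPM. Counts of 3 correspond to 0.128 to 0.276 CPM across the libraries, so values under that were not told from 0.

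The balance of S1PR2 to S1PR1 within a library does not depend on library scaling. On reads per kilobase of exon, S1PR2 was 0.960 times S1PR1 in WT_1, 0.923 times in WT_2 and 2.09 times in Het_8. The ratio was 18.8 in WT_3, 8.95 in WT_4, 12.5 in WT_5, 12.1 in Het_6, 20.2 in Het_7 and 29.2 in both Het_9 and Het_10. The level of S1PR2 over S1PR1 was lowest in WT_1 and WT_2 and highest in Het_9 and Het_10. The ratio itself depends on the S1PR1 length: with the longest transcript of each gene it was 0.511 in WT_1, 0.491 in WT_2, 1.11 in Het_8, 4.75 to 10.8 in the cluster of 5 and 15.5 in both Het_9 and Het_10.

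CXCR4 (ENSG00000121966, chromosome 2, 136114349 to 136119177, minus strand) was higher in the cluster of 3. It had 295 CPM in WT_1, 336 in WT_2 and 272 in Het_8. It had 185 CPM in WT_3, 220 in WT_4, 216 in WT_5, 150 in Het_6, 158 in Het_7, 188 in Het_9 and 205 in Het_10. The cluster of 3 lay above all other libraries, with a mean 1.62-fold that of the cluster of 5.

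CXCR5 (ENSG00000160683, chromosome 11, 118883892 to 118897787, plus strand) was lower in the cluster of 3. It had 344 CPM in WT_1, 360 in WT_2 and 293 in Het_8. It had 514 CPM in WT_3, 433 in WT_4, 421 in WT_5, 688 in Het_6, 576 in Het_7, 669 in Het_9 and 705 in Het_10. The cluster of 3 was below all other libraries, and the mean of the cluster of 5 was 1.58-fold higher. Per kilobase, CXCR5 was 0.725 to 0.787 times CXCR4 in the cluster of 3, 1.31 to 1.88 times in WT_3, WT_4 and WT_5, and 2.33 to 3.10 times in Het_6, Het_7, Het_9 and Het_10. With the longest transcripts these were 0.541 to 0.589, 0.983 to 1.41 and 1.74 to 2.31 times. In GENCODE 44, 91.1% of the CXCR5 exon bases are also exons of BCL9L on the opposite strand. BCL9L had 27.2 to 43.3 CPM, and with the strand setting of the counting unknown, the share of its reads in CXCR5 is uncertain. Reads that fall in both genes could also have been dropped, which would lower the CXCR5 levels and their ratio to CXCR4.

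**Figure D2:**
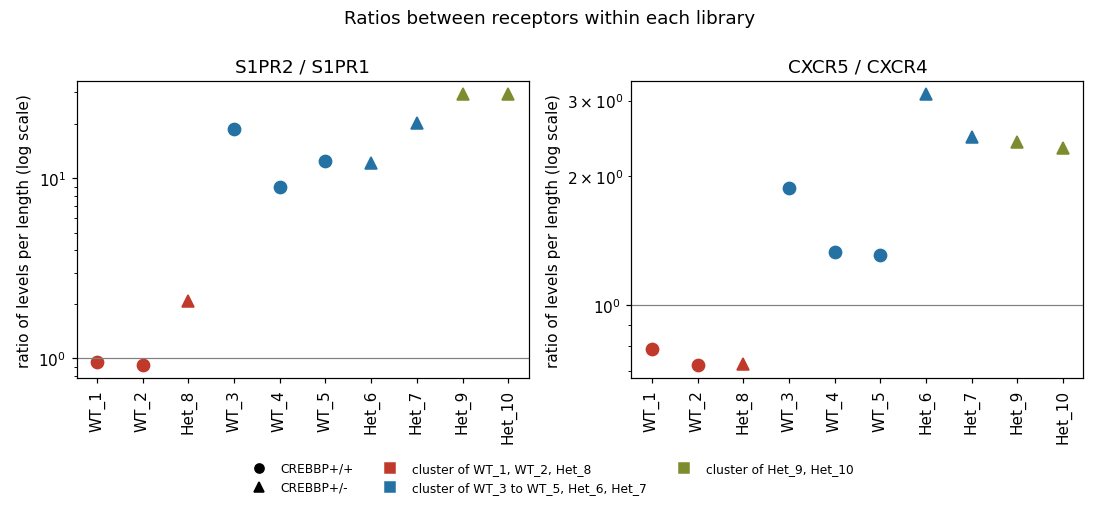
Ratios of levels per kilobase of exon (union of exons) within each library (y, log scale) for S1PR2 over S1PR1 (left) and CXCR5 over CXCR4 (right), with libraries along x, circles for CREBBP+/+, triangles for CREBBP+/-, colours for clusters and a grey line at equal levels. WT_1 and WT_2 lie just under 1 on the left, and all of WT_1, WT_2 and Het_8 lie at 0.725 to 0.787 on the right.

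CCR7 (ENSG00000126353, chromosome 17, 40553769 to 40565472, minus strand) was low and set apart by 1 library. It had 5.36 CPM in WT_1, 6.06 in WT_2, 5.73 in WT_3, 3.74 in WT_4 and 0.573 in WT_5. It had 3.63 CPM in Het_6, 3.09 in Het_7, 5.12 in Het_8, 2.48 in Het_9 and 2.10 in Het_10. The value of WT_5 rests on 11 counts against 27 to 127 in the other libraries, and no cluster was apart from the rest.

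GPR183 (ENSG00000169508, chromosome 13, 99294539 to 99307399, minus strand) was highest in Het_9 and Het_10, at 4.5 and 5.17 CPM. It had 2.65 CPM in WT_1, 2.67 in WT_2, 2.71 in WT_3, 1.26 in WT_4, 1.46 in WT_5, 3.29 in Het_6, 2.60 in Het_7 and 1.20 in Het_8. These levels rest on 22 to 111 counts per library. GPR183 and S1PR2 were the 2 of 8 tested genes that lay outside the range of the other 8 libraries in both Het_9 and Het_10, where 18.5% of all genes tested did.

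CCR6, the receptor for CCL20 (ENSG00000112486, chromosome 6, 167111807 to 167139141, plus strand), had 0 to 2 counts in each library, 6 in all, and was not told from 0. Of its exon bases, 85.2% are also exons of a gene known by the identifier ENSG00000272980 on the same strand, which had 169 to 472 counts, and reads that fall in both could have been dropped or assigned to that gene. S1PR2 shares 83 bases (2.28%) of its exons with DNMT1 on the same strand. DNMT1 had 606 to 685 CPM in the cluster of 3 and 454 to 566 CPM elsewhere, the opposite order to S1PR2.

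Read against all genes, 4 of 8 tested members were below and 1 was above the other 7 libraries in the cluster of 3, where 17% of all genes tested were below and 16.1% above. Between the clusters of 3 and 5 alone, 5 of 8 members and 45.8% of all genes tested did not overlap: 4 members and 23.9% of genes were lower in the cluster of 3, and 1 member and 21.9% of genes were higher. The clusters were drawn from expression of all genes in these same libraries, so the differences between them carry no test. Differences between clusters took 96.9% of the variance of log2 CPM of P2RY8, 95.3% of S1PR2, 93.7% of GNA13, 78.4% of CXCR5, 75.9% of CXCR4, 67.6% of S1PR1, 50.6% of GPR183 and 29.6% of CCR7, against a median of 63.5% over all genes tested. Genotype took 43.2% for S1PR1, 27.0% for CXCR5 and 25.3% for CXCR4, and 0.999% to 2.97% for the 3 confinement genes, against a median of 6.03%. The shares for clusters and for genotype were computed separately and can overlap, because the clusters are not balanced over the genotypes.

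Centred on their means, P2RY8 and GNA13 had the most similar profiles of the 28 pairs of tested members (root mean square difference 0.18 log2 units over 10 libraries), and S1PR1 and S1PR2 the least similar (1.83). The profiles were not scaled, so this measure also depends on how widely each gene varied. CXCR4 and GNA13, higher and lower in the cluster of 3, differed by 0.70, and S1PR2 and GNA13, both lower there, by 0.75. Genes most like a member were sought by the same measure among genes of at least 1 CPM, for members whose log2 CPM spanned at least 2 units. For S1PR2 these were BCAR1 (0.25), an adhesion docking protein, HELZ2 (0.26) and ADAP2 (0.28), against a median of 1.09 over 11501 genes. BCAR1 had 4.13 to 5.13 CPM in the cluster of 3 and 17.5 to 24.7 CPM elsewhere. For S1PR1 they were CLEC17A (0.31), a lectin of dividing germinal centre B cells, CCL4L2 (0.33), a chemokine gene with near-identical copies whose reads could be split, and FERMT3 (0.38), the kindlin that activates integrins in blood cells, against a median of 0.94. For GPR183 they were MPZL3 (0.30), SPR (0.34) and ADAM28 (0.36), and for CCR7 ST3GAL4 (0.35), TBKBP1 (0.35) and VEGFA (0.36), against medians of 0.71 and 0.95. The 10 libraries share the clusters, so a like profile is a description of them.

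Compared per kilobase of exon, the members covered a wide range. Mean levels, as CPM per kilobase of exon, were 117 ± 35.5 for CXCR5, 76.7 ± 20.9 for CXCR4, 45.1 ± 12.2 for GNA13, 45.0 ± 14.3 for P2RY8, 16.9 ± 9.44 for S1PR2, 2.14 ± 1.47 for S1PR1, 1.63 ± 0.780 for GPR183, 1.51 ± 0.711 for CCR7, 0.180 ± 0.293 for S1PR4 and 0.00876 ± 0.0122 for CCR6 (SD, n = 10). P2RY8 exceeded S1PR2, and CCR7 exceeded S1PR4, in 10 of 10 libraries, and CXCR4 exceeded GNA13 in 9. The order of GNA13 and P2RY8, of S1PR1 and GPR183, and of GPR183 and CCR7 held in 5 of 10 libraries each and is not resolved, and CXCR5 exceeded CXCR4 in 7. With the longest transcript as the length, CXCR5 (117) exceeded CXCR4 (103) in 5 of 10 libraries.

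**Figure D3:**
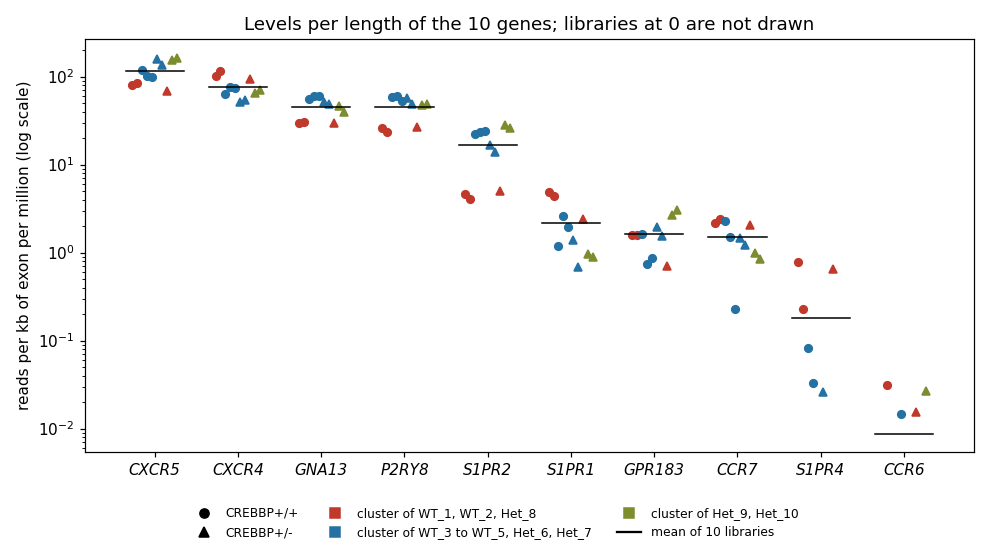
Levels in CPM per kilobase of exon (y, log scale) of the 10 genes (x, ordered by mean), with a point per library, circles for CREBBP+/+, triangles for CREBBP+/-, colours for clusters and a line at the mean (libraries at 0 are not drawn). The means run from 117 for CXCR5 to 0.00876 for CCR6, and the points of S1PR2 split into a low group of 3 and a high group of 7.

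Between genotypes, no member passed. The comparison asked whether the positioning genes differ between CREBBP+/+ and CREBBP+/- clones. With the quasi-likelihood test of edgeR over all genes, 0 of 8 tested members and 0 of 11961 genes (0%) passed the 0.05 threshold after adjustment. Before adjustment S1PR1 and CXCR5, 2 of 8 members, were under 0.05, as were 4.98% of all genes. DESeq2 also called 0 members, with 0.26% of genes called, and in 0 of 8 members did the groups separate, as they did in 1.02% of all genes.

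S1PR1 had the largest point estimate, lower in CREBBP+/- libraries. Its mean was 15.7 ± 8.28 CPM in the CREBBP+/+ group against 6.62 ± 3.56 CPM in the CREBBP+/- group (SD, n = 5 each), a log2 fold change of -1.24 (SE 0.44, 95% confidence interval -2.21 to -0.27, edgeR adjusted p = 0.976, exact permutation p = 0.0556 and 0.922 when adjusted over all genes). The groups overlapped through WT_3 (6.22 CPM) and Het_8 (12.5 CPM). CXCR5 averaged 414 ± 67.6 and 586 ± 171 CPM, a log2 fold change of 0.50 (SE 0.22, interval 0.01 to 0.99, edgeR adjusted p = 0.977), and Het_8 was the lowest of all 10 libraries.

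The other members had intervals that include 0. The log2 fold changes were -0.36 for CXCR4 (-0.81 to 0.08), -0.38 for CCR7 (-1.50 to 0.73) and 0.64 for GPR183 (-0.24 to 1.51). Those of the confinement branch were 0.19 for S1PR2 (-1.10 to 1.48), 0.06 for P2RY8 (-0.61 to 0.72) and -0.13 for GNA13 (-0.66 to 0.41). For S1PR2 and P2RY8 the sign depends on single libraries: without WT_2 they were -0.06 and -0.11, and without Het_8 0.43 and 0.20. S1PR2 was also below 0 without WT_1 (-0.04) or Het_9 (-0.03), and P2RY8 without WT_1 (-0.09) or Het_6 (-0.03). The intervals leave room for more than a 2-fold difference in S1PR2 in either direction, while P2RY8 and GNA13 were bounded below that.

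Inside the cluster of 5, where both genotypes are present more than once, the Het_6 and Het_7 values of CXCR4, S1PR2 and GNA13 lay below, and those of CXCR5 above, all of the CREBBP+/+ values. S1PR2 averaged 56.1 CPM in Het_6 and Het_7 and 85.0 CPM in the 3 CREBBP+/+ libraries, with a log2 fold change of -0.60 (SE 0.10, interval -0.85 to -0.35). CXCR4 had -0.43 (SE 0.10, 154 and 207 CPM), CXCR5 0.47 (SE 0.12, 632 and 456 CPM) and GNA13 -0.23 (SE 0.08, 322 and 377 CPM). Each of the 4 had an edgeR adjusted p of 0.392 over all genes and did not pass. They are also the 4 of 8 members with an unadjusted p under 0.05, against 12.5% of all genes, and the 4 of 8 whose genotypes did not overlap there, against 36.2%.

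The call inside this cluster depends on the tool and on 1 library. DESeq2 called 3 of 8 members (1.42% of all genes): S1PR2 (adjusted p = 0.00126), CXCR4 (0.0277) and CXCR5 (0.0320). Without WT_3, edgeR called the same 3 (adjusted p = 0.0342, 0.0233 and 0.0356), with 6.79% of all genes. Over the 5 fits that leave out 1 library and the DESeq2 fit, the adjusted p of S1PR2 ran from 0.00126 to 0.961. S1PR1 had -0.87 (SE 0.42), GPR183 0.70 (SE 0.40), P2RY8 -0.11 (SE 0.10) and CCR7 0.00 (SE 0.79) and passed in none of these fits.

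The other CREBBP+/- libraries gave other S1PR2 values. Het_9 and Het_10 had the highest S1PR2 of all 10 libraries, and Het_8 had 18.3 CPM beside 17 and 14.9 CPM in WT_1 and WT_2. CXCR5 of Het_8 was below that of WT_1 and WT_2 (293 against 344 and 360 CPM), the reverse of the cluster of 5. CXCR4 of Het_8 was also lower than in WT_1 and WT_2 (272 against 295 and 336 CPM), and S1PR1 was too (12.5 against 25.4 and 23.1 CPM). An edgeR term for a different genotype effect in the clusters of 3 and 5 was 0.79 for S1PR2 (SE 0.19, adjusted p = 0.231), -0.74 for CXCR5 (SE 0.19, adjusted p = 0.237), -1.85 for GPR183 (SE 0.66, adjusted p = 0.325) and 0.21 for CXCR4 (SE 0.17, adjusted p = 0.639). It passed in 0 of 8 members and in 0.0821% of all genes. Het_8 is the 1 CREBBP+/- library of the cluster of 3, and this term assumes that it varies like the libraries of the other groups. With the clusters as a covariate, CXCR4 had -0.35 (SE 0.09, edgeR adjusted p = 0.217) and S1PR1 -0.90 (SE 0.27, edgeR adjusted p = 0.274). Het_9 and Het_10 form a cluster without CREBBP+/+ libraries, so the genotype estimate of this fit rests on Het_6, Het_7 and Het_8.

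**Figure D4:**
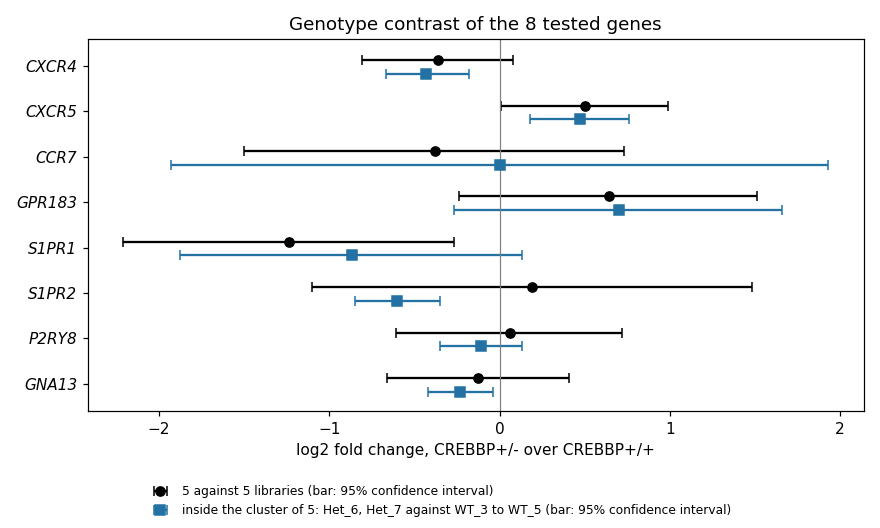
Log2 fold changes of CREBBP+/- over CREBBP+/+ (x) of the 8 tested genes (y), with black circles for all 10 libraries and blue squares for the cluster of 5, and bars for 95% confidence intervals. S1PR2 lies at 0.19 with a wide bar over all libraries and at -0.60 with a narrow bar inside the cluster of 5.

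Of 149 genes in 9 lists around the receptors, 107 were tested, 0 passed in edgeR over all genes and 7 (6.54%) had an unadjusted p under 0.05, beside 4.98% of all genes tested. None of the chemokines that the receptors bind (CXCL12, CXCL13, CCL19, CCL20, CCL21) was tested, and 4 of the 5 had no count. Of 16 enzymes and transporters for the lipid ligands, 9 were tested (median log2 fold change -0.19), with ABCC1, an exporter of the P2RY8 ligand, at -0.25 (SE 0.12) and MFSD2B, a sphingosine-1-phosphate exporter, at 0.99 (SE 0.47). Of 35 other chemoattractant and lipid receptors, 11 were tested (median -0.30), with LPAR5 at -0.97 (SE 0.41) and P2RY10 at -0.74 (SE 0.34). S1PR3 and S1PR5 had no count in any library.

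The G alpha 13 and RhoA list had 20 of 20 genes tested and a median of 0.03, beside -0.01 over all genes tested. Its smallest p-values belonged to ARHGDIB (-0.26, SE 0.12), and RIC8A, a chaperone of G alpha subunits (-0.16, SE 0.08). Of the 21 Gi and Rac genes 19 were tested (median -0.16, 17 below 0), and 1 had an unadjusted edgeR p under 0.05. These genes share the same libraries and clusters, so their signs are not independent. RAC2, the haematopoietic Rac GTPase, averaged 185 ± 21.2 and 123 ± 12.7 CPM (log2 fold change -0.58, SE 0.11, edgeR adjusted p = 0.395), the 1 gene of these lists whose groups did not overlap (0.935% of the 107, beside 1.02% of all genes tested), and CDC42 had -0.18 (SE 0.11). Of 16 genes for receptor desensitisation 14 were tested (median -0.20), with the receptor kinase GRK2 at -0.38 (SE 0.13) and the G protein inactivator RGS10 at -0.27 (SE 0.10). Medians were -0.01 for 16 transcription factors (MEF2C 0.29, TCF4 0.18), -0.05 for 10 dark zone genes (CDC20 -0.33) and -0.07 for 11 light zone genes (BCL2A1 0.33, EGR1 0.49).

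Along the clusters, partners of the confinement branch differed among themselves, in genes chosen after their values were seen. ARHGEF12, a RhoA exchange factor, had 51.1 to 57.6 CPM in the cluster of 3 and 144 to 187 CPM elsewhere, like the receptors. ARHGEF1, the exchange factor named for this pathway in B cells, ran the other way, with means of 179 CPM in the cluster of 3 and 111 CPM in the cluster of 5. RGS2 and RGS13, inactivators of G proteins, had 36.7 to 52.4 and 129 to 174 CPM in the cluster of 3. They had 166 to 215 and 245 to 486 CPM elsewhere. Of the 20 G alpha 13 and RhoA genes, 7 were lower and 3 higher in the cluster of 3 than in the cluster of 5 without overlap. Of the 14 tested desensitisation genes, 6 were lower and 2, GRK2 and CD69, were higher. Over all genes tested, 23.9% were lower and 21.9% higher. CD69, which removes S1PR1 from the cell surface, had 55.1 to 110 CPM in the cluster of 3 and 12.1 to 42.8 CPM elsewhere. KLF2, an activator of S1PR1 transcription, had at most 12 counts in any library and was not tested. Its means were 0.0182 CPM in the cluster of 3, 0.307 in the cluster of 5 and 0.0692 in Het_9 and Het_10. The values in the cluster of 3 and in Het_9 and Het_10 (at most 0.0546 and 0.0919 CPM) were not told from 0. Those in the cluster of 5 ran from 0.0965 CPM, which was also not told from 0, to 0.541 CPM. A link to S1PR1 was not tested.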

How the data were processed

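The deposited table holds raw counts, with an Ensembl gene in each line and a library in each column. Tools listed in the submitters' processing notes are STAR, featureCounts, FastQC and DESeq2, with GRCh38 as the build, and the strand setting and annotation release are unknown. Counts of at least 10000 are rounded to 4 significant digits in the deposited table. Columns Het_6 to Het_10 match the CREBBP+/- group but no single sample. Symbols matched 20804 of 21174 identifiers; coordinates and exon lengths come from GENCODE 44.

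The 5 and 5 libraries were compared with edgeR 4.0.16 in R 4.3.3 (quasi-likelihood F-test, TMM, robust, filterByExpr with minimum count 10 and total 15, Benjamini-Hochberg over 11961 genes, threshold 0.05) and by exact two-sided permutation over 252 assignments, whose smallest p is 0.00794. The fit was tested on data simulated with the same dispersion for every gene and without clusters. That test therefore does not cover the cluster structure of these libraries. Log2 CPM used a prior count of 2. Alternatives were DESeq2 1.42.0, limma-voom (limma 3.58.1), other factors, filters, cluster terms and left-out libraries. Per-length levels divide CPM by the union of exons. Promoter sequences are from RefSeq, found for 9 of 10 members, with the most upstream start of each used. The members, lists, clusters and naming rule (all members, and the 2 genes of smallest p per list where none passed, of which 1 is not reported here) were chosen with earlier results of these data known. The interaction term, the likelihood ratio test and the longest-transcript length were added after seeing the data.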

Additional observations from a re-analysis of the deposited data

Results flagged for a closer look

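A library was singled out in 3 of 16 groups of 5 values (8 tested members, each genotype). In each of these it lay far from the remaining 4 relative to the group's range. Chance gives this in about 1 of 20 groups if the 5 values come from 1 normal population, whereas each genotype here mixes clusters. Het_8 was the lowest CREBBP+/- library for CXCR5, with a log2 CPM of 8.20 (next 9.17). It was also the lowest for P2RY8, with 6.93 (next 7.76). Het_8 is the 1 CREBBP+/- library of the cluster of 3. The other libraries of that cluster, WT_1 and WT_2, had 8.43 and 8.49 for CXCR5 and 6.87 and 6.72 for P2RY8. WT_5 was the lowest CREBBP+/+ library for CCR7, with -0.56 (next 1.94), on 11 counts.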

How the results depend on the processing

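No member passed between genotypes in the 10 fits that leave out 1 library or in the 9 other alternatives. Over all genes, calls were 34 with DESeq2, 16 with the likelihood ratio test of edgeR and 0 to 1 leaving out 1 library. The sign of S1PR2 (0.19) turned with the clusters as a covariate (-0.34) and without Het_9 and Het_10 (-0.40), and ran from -0.06 to 0.43 leaving out 1 library. That of P2RY8 (0.06) turned with the covariate (-0.02) and ran from -0.11 to 0.20. In the covariate fit, too, Het_9 and Het_10 do not inform the genotype estimate. Leaving out 1 library gave -1.61 to -1 for S1PR1, 0.43 to 0.67 for CXCR5, -0.52 to -0.24 for CXCR4, -0.67 to -0.23 for CCR7, 0.43 to 0.85 for GPR183 and -0.26 to -0.02 for GNA13, and CXCR5 had 0.22 and GPR183 0.14 with the covariate. Inside the cluster of 5, members called were 3 with DESeq2 and 0 to 3 leaving out 1 library, and log2 fold changes ran from -0.50 to 0.65 for CCR7, -1.46 (without Het_6) to -0.46 (without Het_7) for S1PR1 and 0.50 (without WT_4) to 1.11 (without WT_3) for GPR183. The cause of these changes was not tested. The count of 5 members apart between clusters was also 5 with library totals in place of TMM factors. A smaller prior count also gave 5, but it leaves the order of the libraries unchanged and so could not alter the count. No paired analysis was possible because the CREBBP+/- columns carry numbers that the CREBBP+/+ columns do not share. CCR6 and S1PR4 were too low in counts to be tested.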

Other observations

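The genes next to the members did not all follow them. Of 31 tested genes within 500 kb of S1PR2, 20 were higher in the cluster of 3 than in the cluster of 5 without overlap and 0 were lower, beside 21.9% and 23.9% of all genes tested (median difference 0.42 on the log2 scale), while S1PR2 differed by -2.10. All 4 tested neighbours of CXCR4 were higher in the cluster of 3, as CXCR4 was (0.71): among them R3HDM1 by 1.25, UBXN4 by 1.10 and MCM6, a subunit of the replicative helicase, by 0.36. The 3 tested neighbours of S1PR1 (1.37) differed by 0.45 to 1.07, and 2 of them were higher without overlap. Around S1PR4 (2.69), 10 of 21 were lower and 2 higher, against 23.9% and 21.9% of all genes tested. Around P2RY8 (-1.14), the 3 tested neighbours differed by -0.35 to 0.37. Around GNA13 (-0.88), the 6 tested neighbours had a median of -0.27 (-3.22 to 0.84), and around CXCR5 (-0.64) 14 of 26 were lower and 2 higher, against the same 23.9% and 21.9%.

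Genes outside the receptor set also separated the cluster of 3 from the other libraries; those given here were chosen after their values were seen. LMO2, a germinal centre transcription cofactor, had 0.981 to 5.07 CPM in the cluster of 3 and 33.9 to 124 CPM elsewhere. PRDM1, the plasma cell repressor, had 1.79 to 3.71 CPM in the cluster of 3, 39.6 to 66.6 CPM in the cluster of 5 and 9.28 and 10.8 CPM in Het_9 and Het_10, lowest first. PREX1, a Rac exchange factor, had 14.2 to 36.5 CPM in the cluster of 3 and 0.104 to 8.30 CPM elsewhere. SGPP1, which removes the phosphate of sphingosine-1-phosphate, had 22.0 to 28.1 and 58.0 to 115 CPM.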
